A study of Sus scrofa with 2 samples.

Results

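CD207 and BCL2A1 are the genes described here. They were found by their symbols among the gene names of the deposited files, where they are 2 of 31908 listed genes. CD207 encodes langerin, a C-type lectin receptor of Langerhans cells. BCL2A1 encodes a member of the BCL2 family that inhibits apoptosis. Each cell with at least 1 molecule of CD207 or BCL2A1 was then compared with the cells that had CCR7, C1QA or NKG7, and the molecules of both genes were counted in each skin cell lineage.

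The study asked how well cryopreservation keeps cells dissociated from pig skin for sequencing of their RNA cell by cell. One library was made from fresh cells, labelled as having no treatment, and one from cells that had been frozen in fetal bovine serum with DMSO, kept in liquid nitrogen and thawed. The skin came from the back of healthy young male farm pigs (Sus scrofa), and the sources used here do not say how many animals went into either library or whether both came from the same animal. The labels give FACS for removing dead cells, with magnetic sorting as an alternative, and both libraries were made with the 10x Genomics Chromium 3′ chemistry. This chemistry counts unique molecular identifiers (UMIs), each standing for 1 captured RNA molecule. With 1 library of each kind no test between fresh and cryopreserved cells was possible. All intervals given below are exact 95% intervals (Poisson for levels, Clopper-Pearson for shares, conditional binomial for ratios). They cover counting error only, not the variation between animals or preparations. For levels and ratios each UMI was taken as independent, so the variation between cells is not covered either, and those intervals are too narrow where a few cells hold many UMIs.

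Langerhans cells are the dendritic cells of the epidermis. They take up antigen through receptors such as langerin and are held among keratinocytes by E-cadherin. On activation they raise CCR7, the chemokine receptor that guides them to lymph nodes. Langerin is also carried by some dermal dendritic cells, in mice among them XCR1-bearing cells that cross-present antigen. BCL2A1 is a target of NF-kB, holds pro-apoptotic BCL2 relatives in check and is used by many blood-derived cells. C1QA encodes a chain of complement C1q and is typical of tissue macrophages, and NKG7 encodes a granule protein of cytotoxic lymphocytes.

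In Sscrofa11.1, CD207 lies on the plus strand at chr3:71668233-71674871 and has 6 exons, with an annotated transcript of 1096 bases of which 82 are 3′ untranslated region. BCL2A1 lies on the minus strand at chr7:48887227-48897667 and has 2 exons, with a transcript of 620 bases of which 29 are 3′ untranslated region. The parts of the coding sequence that carry each protein's best known function are shown first, read from the RefSeq genome of the same build. In CD207 this is a stretch of exon 6 (chr3:71674639-71674708, plus strand, 5′ to 3′), and the capitals mark the codons for glutamate, proline and asparagine, residues that in C-type lectins bind calcium and sugar, starting at residue 286 of 329.
CD207 exon 6: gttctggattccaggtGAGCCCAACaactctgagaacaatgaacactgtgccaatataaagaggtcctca
In BCL2A1 it is a stretch of exon 1 (chr7:48897296-48897397, minus strand), and the capitals mark the codons for asparagine, tryptophan, glycine and arginine of the BH1 motif shared by the BCL2 family, starting at residue 85 of 175.
BCL2A1 exon 1: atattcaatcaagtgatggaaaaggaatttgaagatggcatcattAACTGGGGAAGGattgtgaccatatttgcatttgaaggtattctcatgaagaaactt

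The 250 bases before each annotated start are shown because the genes differed in how many lineages used them. Both strands were searched for the letters of 3 factors: GGG and CC with any 5 bases between them (NF-kB), GAGGAAGT (PU.1) and TGANTCA (AP-1).
CD207 upstream, chr3:71667983-71668232, plus strand: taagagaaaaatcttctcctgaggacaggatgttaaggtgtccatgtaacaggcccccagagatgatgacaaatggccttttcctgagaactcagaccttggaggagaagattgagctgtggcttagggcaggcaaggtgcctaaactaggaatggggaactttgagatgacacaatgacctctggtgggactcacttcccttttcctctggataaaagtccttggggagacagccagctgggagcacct
BCL2A1 upstream, chr7:48897668-48897917, minus strand: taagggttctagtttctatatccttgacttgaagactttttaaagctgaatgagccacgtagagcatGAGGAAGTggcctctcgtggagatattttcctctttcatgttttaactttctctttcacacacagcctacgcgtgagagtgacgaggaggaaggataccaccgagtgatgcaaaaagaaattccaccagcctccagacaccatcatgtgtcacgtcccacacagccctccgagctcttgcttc
The capitals in BCL2A1 mark its match to the PU.1 letters, 183 bases before the start. The CD207 window held none of the 3 motifs. Among 19530 windows of the same length, 59.2% held the NF-kB letters, 1.64% the PU.1 letters and 5.25% the AP-1 letters. A match of letters is not a binding site.

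After filtering, the fresh library held 2775 cells with a median of 11017 UMIs and the cryopreserved library 4223 cells with a median of 7945 UMIs. Among all deposited barcodes, before filtering, 6 occurred in both libraries. CD207, BCL2A1, CCR7, C1QA and NKG7 were left out when the cells were clustered, so that no cluster was built or named from them. The 24 clusters fell into 9 named classes and 1 unnamed cluster. Clusters were called "like" a cell type from marker lists, and 292 cells were called dendritic-like, 108 of them fresh (3.89%) and 184 cryopreserved (4.36%). The dendritic and Langerhans cell lists also served to name the class, so their counts are not a separate check of that name. With the libraries pooled, 8.55% of the 11691 measured genes were at least 2-fold above the other classes together. All 7 measured dendritic cell markers were at least 2-fold above the other classes together in both libraries. One of them was FLT3, the growth factor receptor of dendritic cells, at 329 and 205 UMIs per 1e6 UMIs of the class, written CPM below, against 0.196 and 0.288 CPM in all other cells. Of 8 measured Langerhans cell markers, 6 passed the same bar. The adhesion gene CDH1 (E-cadherin) was among those that did not, with 23.7 and 16.2 CPM against 202 and 246 CPM in the other classes, which include the keratinocyte-like cells. Collagen and keratin genes, which mark fibroblasts and keratinocytes, were low: the 7 fibroblast markers summed to 2141 and 825 CPM in dendritic-like cells against 62741 and 63714 CPM in the other classes together, and the 5 epidermal stem cell markers to 79.6 and 104 CPM against 5138 and 5701 CPM. Markers of other immune cells were not absent. The bar was also passed by 2 of 9 macrophage markers (CSF1R and CD163) and 2 of 5 monocyte or neutrophil markers (ITGAM and CD300C). So did 2 of 6 mast cell markers (MS4A2 and FCER1G) and 3 of 7 T or NK cell markers (CCL5, IL7R and CD2). CD209 was at 1.82 and 2.08 CPM and KLRB1 at 0.

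CD207 was almost private to the dendritic-like cells, and BCL2A1 was highest there but shared with other immune lineages. Dendritic-like cells held 98.8% of all CD207 UMIs and 73.2% of all BCL2A1 UMIs, while making up 4.17% of the cells. Both genes had their highest CPM in this class, as did 4.12% of the 11691 measured genes, and both were at least 2-fold above the other classes together, as were 8.55%. By the share of UMIs in dendritic-like cells, CD207 ranked 1 and BCL2A1 ranked 25 of those genes. FLT3 (98.3%) and the macrophage elastase gene MMP12 (97.9%) followed CD207. The median measured gene had 3.35% of its UMIs in this class.

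In the fresh library CD207 had 332 UMIs in 47 of 2775 cells (1.69%, 1.25 to 2.25%), a level of 10.3 CPM (9.21 to 11.5). The cryopreserved library had 471 CD207 UMIs in 96 of 4223 cells (2.27%, 1.85 to 2.77%), or 12.8 CPM (11.7 to 14.1). The ratio of cryopreserved to fresh was 1.25 (1.08 to 1.44). CD207 molecules were unevenly spread, and 1 fresh cell with 48 UMIs held 14.5% of the fresh library's total. BCL2A1 had 3989 UMIs in 297 fresh cells (10.7%) and 4581 UMIs in 493 cryopreserved cells (11.7%), and its levels of 124 and 125 CPM gave a ratio of 1.01 (0.968 to 1.05). Thus the interval of the ratio held 1 for BCL2A1 but not for CD207.

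Within the dendritic-like cells, fresh CD207 stood at 199 CPM (178 to 222) and cryopreserved CD207 at 243 CPM (221 to 266), a ratio of 1.22 (1.06 to 1.41). CD207 was seen in 43 of 108 fresh cells (39.8%, 30.5 to 49.7%) and in 91 of 184 cryopreserved cells (49.5%, 42 to 56.9%). The intervals of these shares overlapped, although the cryopreserved cells were shallower, with a median of 9412.5 UMIs against 14625. When each cell was thinned to 1000 UMIs, 12 of 108 and 30 of 184 kept a CD207 UMI. Outside the dendritic-like cells CD207 was rare. It was seen in 5 of 2786 fibroblast-like cells (0.179%, median depth 10946.5 UMIs), none of which kept it after thinning, and in 1 of 1588 keratinocyte-like cells. The T or NK-like class had 2 of 398 cells and the smooth-muscle-like class 1 of 619.

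Macrophage-like cells had no CD207 UMI in 152 fresh and 275 cryopreserved cells, where the exact interval of the share of cells with a UMI reached up to 2.40% and 1.33%. The mast-like, endothelial-like and lymphatic-like classes had none either, in 150, 471 and 242 cells. Of the 9 cells with CD207 outside the dendritic-like class, 8 had 1 UMI and 1 fibroblast-like cell had 2.

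BCL2A1 fell in steps across the immune lineages. In dendritic-like cells it reached 1821 CPM fresh (1757 to 1888) and 1706 CPM cryopreserved (1648 to 1765), a ratio of 0.937 (0.891 to 0.984) that became 1.001 when each cell was given the same weight. It was seen in 102 of 108 (94.4%) and 168 of 184 (91.3%) of these cells, and after thinning in 73.1% and 68.5%. Macrophage-like cells came next with 479 CPM (444 to 516) in the fresh and 437 CPM (410 to 465) in the cryopreserved library, a ratio of 0.912 (0.827 to 1.01). BCL2A1 was seen in 105 of 152 and 191 of 275 macrophage-like cells, which is 69.1% and 69.5%. The macrophage-like intervals did not reach those of the dendritic-like cells in either library.

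The mast-like and T or NK-like classes followed, and their order by CPM was the same in both libraries, with overlapping intervals only in cryopreserved cells. Mast-like cells had 323 CPM fresh (257 to 400) and 207 CPM cryopreserved (156 to 268), a ratio of 0.640 (0.448 to 0.910) that rested on 83 and 56 UMIs. These UMIs came from 14 fresh and 20 cryopreserved cells, and the top cell held 20 and 12 of them. Whether the ratio holds without the top cells or with equal weight per cell was not tested. T or NK-like cells had 159 CPM (136 to 185) and 170 CPM (149 to 193), a ratio of 1.07 (0.872 to 1.31). The order by share of cells was the other way round, with 20.6% and 24.4% of the shallower mast-like cells against 34.5% and 31.2% of the T or NK-like cells. Endothelial-like cells had 10.8 and 12.9 CPM, with BCL2A1 in 23 of 471 cells (4.88%). Fibroblast-like cells, taken as the background, had 0.507 and 0.669 CPM and 16 of 2786 cells (0.574%, 0.329 to 0.931%). Keratinocyte-like cells had 1.03 and 1.13 CPM and 17 of 1588 cells (1.07%). The 4 immune classes thus stood far above the fibroblast-like level, and the keratinocyte-like share was close to it.

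**Figure D1:**
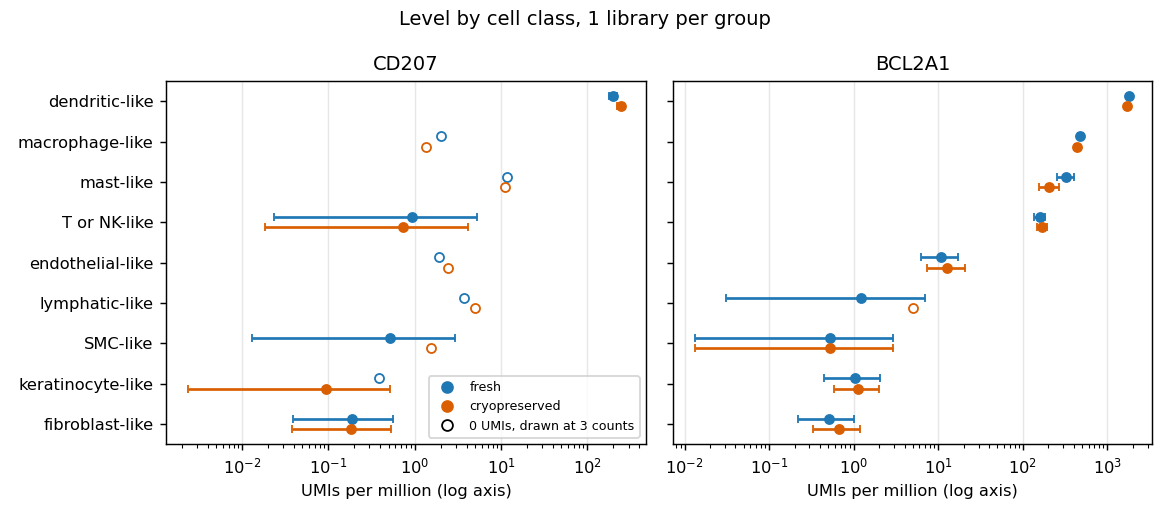
Level of CD207 and BCL2A1 in CPM (log axis) in each cell class, for the fresh and the cryopreserved library, with exact 95% Poisson intervals; open symbols mark classes with 0 UMIs, drawn at the level of 3 counts. CD207 stands at 199 and 243 CPM in dendritic-like cells and below 1 CPM in the other classes where it was seen, while BCL2A1 steps down from dendritic-like through macrophage-like to mast-like and T or NK-like cells.

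The amount per cell differed in shape between the genes. Among the fresh dendritic-like cells CD207 was absent in 65, at 1 UMI in 11, at 2 to 4 UMIs in 11, at 5 to 9 in 9 and at 10 or more in 12. Among the cryopreserved cells the same bins held 93, 30, 26, 19 and 16 cells, and the highest cell had 23 UMIs. BCL2A1 was near continuous, with a median of 21.5 UMIs and a maximum of 132 in fresh cells, and a median of 14 and a maximum of 81 in cryopreserved cells. Only 6 fresh and 16 cryopreserved dendritic-like cells had no BCL2A1.

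**Figure D2:**
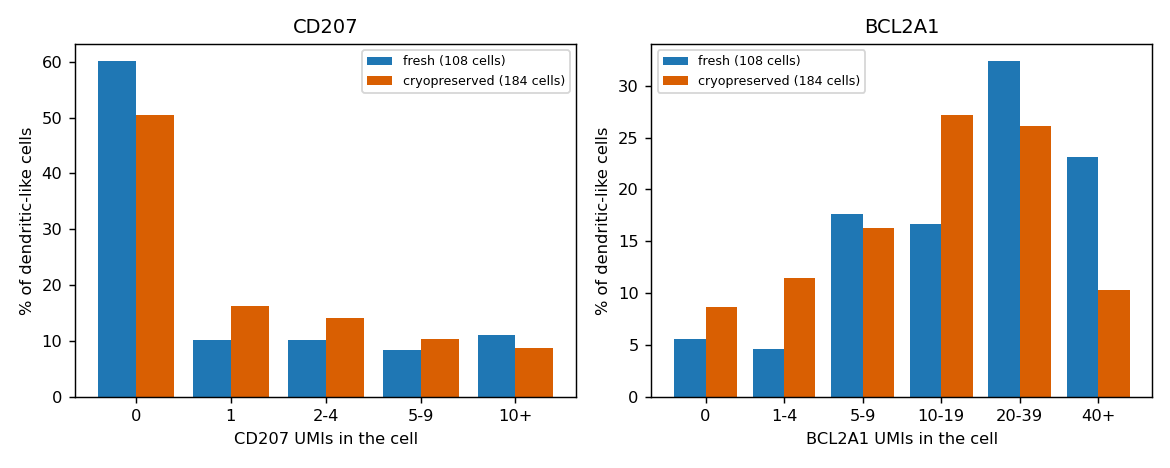
Share of dendritic-like cells (percent) by the number of CD207 UMIs and of BCL2A1 UMIs in the cell, fresh and cryopreserved. Most cells have 0 or a few CD207 UMIs, with 12 fresh and 16 cryopreserved cells at 10 or more, whereas most cells have many BCL2A1 UMIs.

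Cells with CD207 usually had BCL2A1, often had CCR7 or NKG7 and seldom had C1QA. Of the 143 CD207 cells of both libraries, 128 had BCL2A1 (89.5%, 83.3 to 94.0%), 70 had CCR7 (49.0%, 40.5 to 57.4%), 57 had NKG7 (39.9%, 31.8 to 48.4%) and 12 had C1QA (8.39%, 4.41 to 14.2%). Among cells without CD207, 9.66% had BCL2A1, 5.43% CCR7, 8.93% NKG7 and 7.50% C1QA, so the C1QA share was the only one of the 4 inside the interval of the CD207 cells. The libraries gave similar shares: CCR7 in 55.3% of fresh and 45.8% of cryopreserved CD207 cells, NKG7 in 42.6% and 38.5%, and C1QA in 6.38% and 9.38%. Of the CD207 cells, 45 had none of CCR7, C1QA and NKG7, 63 had 1 of them, 29 had 2 and 6 had all 3. As background, fibroblast-like cells (median depth 10946.5 UMIs) had CCR7 in 0.503%, C1QA in 2.08% and NKG7 in 0.215% of cells. Thinned to 1000 UMIs, CD207 cells had CCR7 in 30.2%, NKG7 in 4.65% and C1QA in 0%, against 0%, 0.0361% and 0.288% of fibroblast-like cells. Read the other way, CD207 was seen in 15.8% of the 442 CCR7 cells, 8.52% of the 669 NKG7 cells and 2.28% of the 526 C1QA cells.

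BCL2A1 cells overlapped with all 3 genes. Of 790 BCL2A1 cells, 275 had CCR7 (34.8%, 31.5 to 38.2%), 309 had C1QA (39.1%, 35.7 to 42.6%) and 383 had NKG7 (48.5%, 44.9 to 52.0%), and 16.2% had CD207. Of cells without BCL2A1, 2.69% had CCR7, 3.50% C1QA and 4.61% NKG7. Most cells of each set carried BCL2A1 in return, namely 62.2% of CCR7 cells, 58.7% of C1QA cells and 57.2% of NKG7 cells. The BCL2A1 overlap with C1QA came mostly from macrophage-like cells, and that with CCR7 from dendritic-like and T or NK-like cells. NKG7 was not confined to lymphocytes. Its fresh and cryopreserved levels were 626 and 734 CPM in mast-like, 167 and 221 CPM in macrophage-like and 119 and 183 CPM in T or NK-like cells. In dendritic-like cells they were 66.9 and 62.0 CPM.

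These shares were set largely by cell class, so the overlap was counted again within the dendritic-like class, where 134 cells had CD207 and 158 did not. There CCR7 was seen in 50.7% of CD207-positive cells (42 to 59.5%) and 46.8% of CD207-negative cells (38.9 to 54.9%), and NKG7 in 41.8% and 44.3%. The shares of CCR7 and of NKG7 cells thus had intervals that overlapped between CD207-positive and CD207-negative cells, which does not show that they were equal. With 2 or more UMIs asked of each gene, CCR7 was seen in 52.7% and 37.7% and NKG7 in 11.8% and 23.6%. C1QA was different. It was seen in 3 of 43 CD207-positive against 19 of 65 CD207-negative fresh cells (6.98% and 29.2%), and in 9 of 91 against 28 of 93 cryopreserved cells (9.89% and 30.1%). Pooled, the shares were 8.96% (4.71 to 15.1%) and 29.7% (22.7 to 37.5%), and after thinning to 1000 UMIs C1QA was seen in 0 of 42 and 32 of 250 cells (12.8%). The median depth of CD207-positive and CD207-negative cells was close in both libraries, at 14712 and 14614 UMIs fresh and 9853 and 9231 UMIs cryopreserved.

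**Figure D3:**
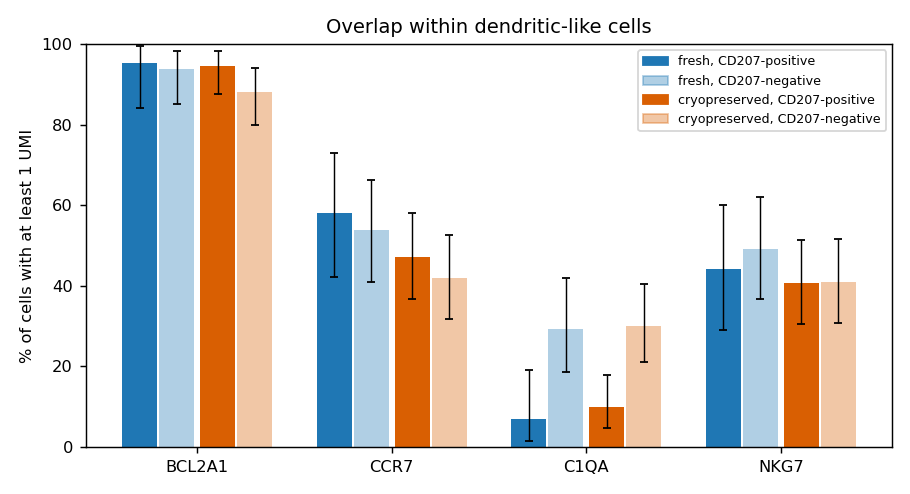
Share of dendritic-like cells (percent) with BCL2A1, CCR7, C1QA or NKG7 among cells with and without CD207, for each library, with exact 95% binomial intervals. C1QA is lower in CD207-positive cells in both libraries (6.98% against 29.2%, and 9.89% against 30.1%), while the CCR7 and NKG7 intervals overlap.

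The level of C1QA differed far more than the share of cells. CD207-positive cells had 4.56 CPM of C1QA against 579 CPM in CD207-negative fresh cells, and 17.1 against 590 CPM in cryopreserved cells. Much of this came from a few cells whose class was in doubt. An immune sub-cluster of 16 cells that led with CX3CR1 and GPR84 (8 in each library) held 869 of the 1139 C1QA UMIs of the class (76.3%), and none of the 16 had a CD207 UMI. All 16 lay in clusters named dendritic-like, but scored by itself the sub-cluster was named macrophage-like, with 8 of 10 macrophage markers seen. C1QC and C1QA were among its 10 leading genes, C1QB was in all 16 cells at 4317 CPM, and FLT3 was in 3 of 16. Its markers were mixed, however. The dendritic cell markers CD86 (1349 CPM) and IRF8 (1135 CPM) and PKIB of the Langerhans cell list (1225 CPM) were in 100% of its cells. The macrophage marker CD209 had 0 UMIs. Without these cells C1QA was seen in 31 of 142 CD207-negative cells (21.8%), still above the share in CD207-positive cells, and the ratio of C1QA levels was 0.0418 in fresh and 0.0925 in cryopreserved cells.

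Within the dendritic-like class CCR7 was more frequent and higher in cells with more BCL2A1. Cells with 0 to 4, 5 to 9, 10 to 19, 20 to 39 and 40 or more BCL2A1 UMIs had CCR7 in 20.8%, 36.7%, 44.1%, 61.4% and 75% of cells. Their CCR7 levels were 87.3, 352, 525, 855 and 1491 CPM. Of the 142 dendritic-like cells with CCR7, 141 (99.3%) had BCL2A1. The median depth of these bins also rose, from 7619 to 18772.5 UMIs, and its part in the shares was not tested. In the same bins CD207 was seen in 27.1%, 51.0%, 38.2%, 50.6% and 63.6% of cells, which did not rise at each step.

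Sorting the same cells by CD207 gave a like picture at the upper end. BCL2A1 stood at 1537 CPM in the 158 cells without CD207, 1227 CPM in the 41 cells with 1 CD207 UMI, 1729 CPM in the 37 cells with 2 to 4, 2517 CPM in the 28 cells with 5 to 9 and 2672 CPM in the 28 cells with 10 or more. All 56 cells with 5 or more CD207 UMIs had BCL2A1. CCR7 was seen in 46.8%, 34.1%, 54.1%, 57.1% and 64.3% of these groups, and C1QA in 29.7%, 7.32%, 10.8%, 10.7% and 7.14%. Median depth rose from 9342 UMIs in cells with 1 CD207 UMI to 14704.5 in those with 10 or more. The low C1QA share was thus already reached at 1 UMI of CD207.

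In the macrophage-like class too, CCR7 was more frequent and higher in cells with more BCL2A1. Among its cells, CCR7 was seen in 18.6% of the 296 with BCL2A1 and 0.763% of the 131 without, and 55 of its 56 CCR7 cells had BCL2A1. With 0, 1 to 4, 5 to 9 and 10 or more BCL2A1 UMIs the CCR7 level was 1.35, 54.1, 85.7 and 371 CPM, and the median depth was 4908, 8971, 10173 and 11452.5 UMIs. These levels leaned on single cells: 1 fresh cell held 73 of the 180 fresh CCR7 UMIs of the class, and 1 cryopreserved cell 54 of 207. A few cells of the class were also placed in sub-clusters of dendritic-like cells on reclustering. The part of such cells was not tested. C1QA moved the other way from CCR7 by a little, from 89.3% of macrophage-like cells without BCL2A1 to 83.8% of those with it. NKG7 was seen in 51.1% and 64.9%. In T or NK-like cells CCR7 was seen in 59.7% of the 129 BCL2A1 cells and 48.7% of the others, and none of the 129 had C1QA. No mast-like cell had CCR7, while NKG7 was seen in 91.2% of mast-like cells with BCL2A1 and 71.6% of those without. Mast-like cells fell into a sub-cluster with a median of 7704 UMIs and one with 2099 UMIs, and BCL2A1 was higher in the deeper one. The part of depth in the T or NK-like and mast-like shares was not tested.

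The dendritic-like cells with CD207 differed from those without in a set of related genes, compared as the ratio of CPM in CD207-positive over CD207-negative cells in each library. Of 7182 genes with enough UMIs, 28.5% were higher and 29.0% lower in CD207-positive cells in both libraries, and the median ratio was 0.992. BCL2A1 itself was higher in both, at 1991 against 1709 CPM fresh (ratio 1.16, 1.08 to 1.25) and 2034 against 1355 CPM cryopreserved (1.5, 1.40 to 1.61). CCR7 had ratios of 1.10 (0.991 to 1.23) and 1.33 (1.19 to 1.48). The NKG7 ratios were 0.513 (0.321 to 0.796) and 0.751 (0.513 to 1.09).

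Of the Langerhans cell markers 4 of the 7 measured were higher in both libraries and 1 was lower, against 28.5% and 29.0% of all genes. The interval lay above 1 in both libraries for 3 of the 7. The share of all genes with such intervals was not computed, so interval counts here and for the lists below have no background. EPCAM, a surface molecule of Langerhans cells, stood at 157 against 76.0 CPM in fresh cells (ratio 2.06, 1.52 to 2.81) and 158 against 47.5 CPM in cryopreserved cells (3.34, 2.37 to 4.77). HPGDS, the haematopoietic prostaglandin D synthase, stood at 71.5 against 9.12 CPM and 37.3 against 8.63 CPM. Without the PTGS1 and HPGDS cells described below and the CX3CR1 and GPR84 cells, the HPGDS ratios were 6.10 (1.22 to 59.0) and 0.919 (0.171 to 4.94). CDH1 had ratios of 1.94 (0.985 to 3.90) and 2.28 (1.01 to 5.64), and the thioesterase gene ACOT7 of 1.91 and 1.83. RUNX3, a factor needed for Langerhans cells to form, was the 1 that was lower, at ratios of 0.759 and 0.847. The CX3CR1 and GPR84 cells, none with CD207, held 102 RUNX3 UMIs at 484 CPM. The RUNX3 ratios without them were not computed, so its direction in the other cells is not given. EPCAM and CDH1 were thus higher with CD207 in both libraries, with a CDH1 interval that held 1 in fresh cells. CDH1 rested on 39 fresh and 31 cryopreserved UMIs in the class. The sub-cluster of the PTGS1 and HPGDS cells, where CD207 was frequent, held 25 CDH1 UMIs in both libraries together. The CDH1 ratios without it were not computed.

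Of the 9 measured dendritic cell markers 3 were higher and 4 lower in both libraries, against 28.5% and 29.0% of all genes. The interval lay above 1 in both for 1 and below 1 in both for 2. FCER1A, the IgE receptor chain of conventional type 2 dendritic cells, was at 336 against 126 CPM and 297 against 154 CPM. IRF4, a factor of the same cells from the Langerhans cell development list, was at 338 against 165 CPM and 384 against 219 CPM. FLT3 was near level, with ratios of 1.02 and 1.06. IRF8, a factor of conventional type 1 dendritic cells, had ratios of 0.689 and 0.506, and of 0.848 (0.710 to 1.01) and 0.593 (0.503 to 0.697) without the 16 CX3CR1 and GPR84 cells. XCR1, the receptor that marks those cells, had 0 UMIs in CD207-positive and 14 in CD207-negative fresh cells, and 1 and 28 in cryopreserved cells. In all, XCR1 was seen in 1 of 134 CD207-positive and 16 of 158 CD207-negative cells.

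Of 5 measured genes of mature, migrating dendritic cells 3 were higher and 1 lower in both libraries, against 28.5% and 29.0% of all genes, and 2 had intervals above 1 in both. FSCN1, the actin-bundling protein fascin, had ratios of 2.31 and 1.47, and the chemokine gene CCL22 had ratios of 12 and 6.31. FSCN1 did not mark the class, at 103 and 234 CPM against 118 and 177 CPM in all other cells. Of the list's 5 genes with at least 200 UMIs in all, 1 was at least 2-fold above the other cells in both libraries. CCL22, with 86 UMIs in all, was not among those 5. The sub-cluster of the PTGS1 and HPGDS cells, where CD207 was frequent, held 30 of the 86. The CCL22 ratios without it are not given here. Of the 6 measured macrophage genes none was higher in both libraries and 5 were lower, 3 of them with intervals below 1 in both, among them the mannose receptor gene MRC1 (0.345 and 0.497) and C1QB (0.0155 and 0.0567). Without the 16 CX3CR1 and GPR84 cells the C1QB ratios were 0.0947 and 0.167. VSIG4, a complement receptor of macrophages, had 0 UMIs in CD207-positive cells against 16 UMIs fresh and 9 UMIs cryopreserved in the others. Genes of antigen presentation were higher in both libraries in 4 of 6 cases, with an interval above 1 in both for 1. Genes of stromal neighbours went opposite ways in the libraries: COL1A1, a fibroblast collagen, was at 2435 against 69.9 CPM in fresh but 94.8 against 759 CPM in cryopreserved cells, and the basal keratin gene KRT5 at 12.2 against 90.2 and 101 against 30.2 CPM. Their part in the ratios was not tested.

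**Figure D4:**
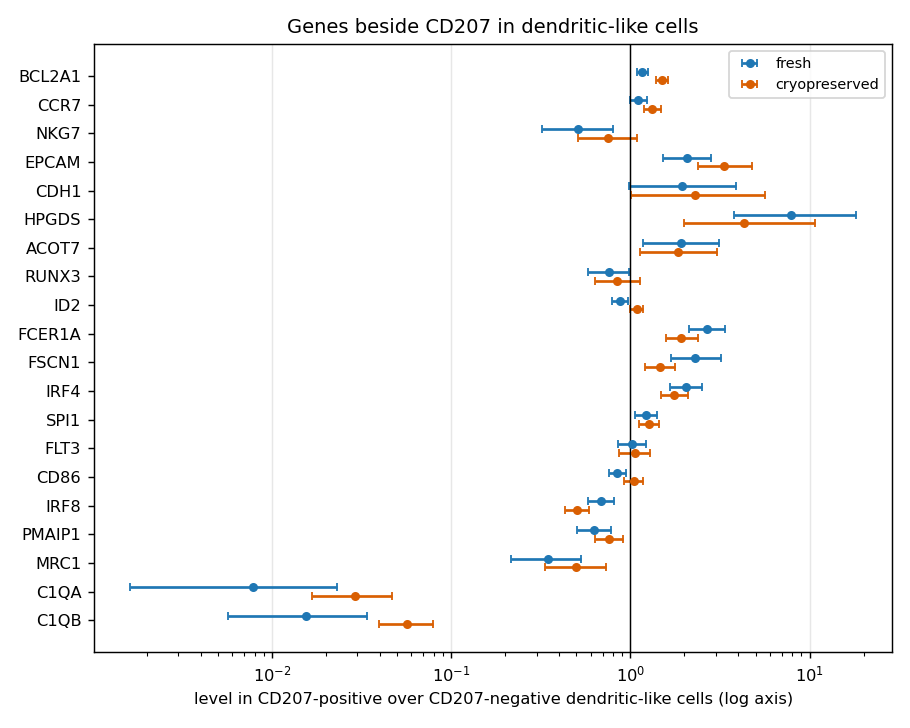
Ratio of CPM (log axis) in CD207-positive over CD207-negative dendritic-like cells for 20 genes, fresh and cryopreserved, with exact 95% intervals. EPCAM, HPGDS, FCER1A, IRF4 and FSCN1 lie above 1 in both libraries, and IRF8, MRC1 and the C1q genes lie below 1 in both.

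Reclustering the 1267 immune cells without the 5 genes split all but 6 of the dendritic-like cells into 4 parts, named here by their leading genes, and CD207 differed among them. The largest, 154 cells that led with the transcription factor genes EHF and BACH2, had CD207 at 275 CPM fresh (242 to 311) and 291 CPM cryopreserved (260 to 324). CD207 was seen in 27 of 56 and 60 of 98 of these cells, BCL2A1 in 98.7% (1868 and 1886 CPM) and CCR7 in 63.6% (1023 CPM in both libraries together). This part also held much of the IRF4 (402 CPM), FCER1A (254 CPM), FSCN1 (278 CPM) and EPCAM (147 CPM) of the class.

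The highest CD207 level was in a small part of 25 cells, called here by the prostaglandin enzyme genes PTGS1 and HPGDS, which ranked 1 and 10 among the genes that led it against the other dendritic-like cells. The collagen gene COL1A1 ranked 4. The whole sub-cluster held 32 cells, among them 4 T or NK-like and 3 macrophage-like cells and 5 cells marked as doublets, and scored by itself it was named fibroblast-like. CD207 in the 25 dendritic-like cells stood at 552 CPM fresh (423 to 708) and 589 CPM cryopreserved (464 to 738), in 8 of 9 and 13 of 16 cells. Every one of the 25 cells had BCL2A1, at 1327 and 1908 CPM, and 44.0% had CCR7, while C1QA was seen in 1. CDH1 reached 104 CPM here against 5.92 CPM in the EHF and BACH2 cells, and EPCAM 129 CPM. IRF4 was low at 20.7 CPM and FCER1A at 8.29 CPM, while IRF8 was at 887 CPM and ID2, a factor needed for Langerhans cells, at 2400 CPM. Thus 2 parts with CD207 shared EPCAM and differed in IRF4, FCER1A, HPGDS and CDH1. Collagen genes gave over 1% of UMIs in 4 of the 25 cells (16%) and a median of 0.0249%. Without those 4 cells the CD207 level was 666 CPM, and the part of mixed or collagen-bearing cells in the other values was not tested.

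The third part held 91 cells and was led among all immune cells by the synaptic gene RIMS2, with XCR1 lower among its leading genes. It had less CD207, at 38.4 CPM fresh (22.8 to 60.7) and 112 CPM cryopreserved (85.7 to 143). CD207 was seen in 8 of 32 and 18 of 59 of these cells, BCL2A1 in 79.1% (1825 and 1269 CPM), CCR7 in 15.4% and C1QA in 4.40%. Against the other dendritic-like cells alone, stress response genes (HSP70.2, DNAJB1 and FOS) were among the genes that led this part instead. At the coarser resolution of 0.4 the sub-cluster of this part was merged into one of 248 cells. XCR1 was seen in 15 of the 91 cells of the third part. Its CD207-positive cells were not the ones with most IRF8, which stood at 95 CPM in them against 550 CPM in the CD207-negative cells of the part (fresh), and at 31.0 against 455 CPM (cryopreserved). The fourth part is the CX3CR1 and GPR84 group of 16 cells described above, which the naming rule called macrophage-like when scored by itself and which had no CD207. It had BCL2A1 in 16 of 16 cells (2102 and 1790 CPM), CCR7 in 15 and C1QA in 16. High BCL2A1 was thus common to all 4 parts, and CD207 to the 3 others.

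**Figure D5:**
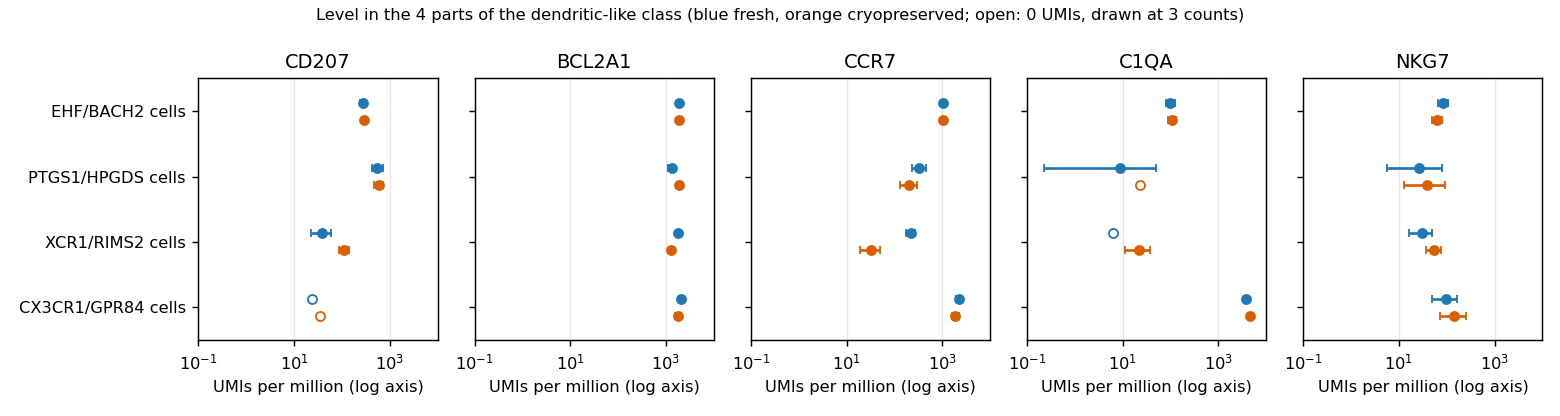
Levels of CD207, BCL2A1, CCR7, C1QA and NKG7 (CPM, log axis) in the 4 parts of the dendritic-like class, fresh and cryopreserved, with exact 95% Poisson intervals and open symbols for 0 UMIs, drawn at 3 counts. CD207 is highest in the PTGS1 and HPGDS cells (552 and 589 CPM) and absent in the CX3CR1 and GPR84 cells, which hold most C1QA, whereas BCL2A1 is above 1000 CPM in all 4 parts.

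Within the EHF and BACH2 cells alone some of the ratios kept their direction in both libraries and others did not. BCL2A1 had CD207-positive over CD207-negative ratios of 1.51 fresh and 1.52 cryopreserved, FCER1A of 2.90 and 2.40, IRF4 of 1.83 and 1.46, EPCAM of 1.57 and 2.73, and CCR7 of 1.52 and 1.26. NKG7 (0.327 and 0.783) and MRC1 (0.221 and 0.430) were lower in both libraries. IRF8 (1.18 and 0.487) and HPGDS (4.14 and 0.622, from 10 or fewer UMIs in each library) went opposite ways, and FSCN1 had ratios of 2.19 and 1.04 (0.854 to 1.28). C1QA was seen in 11 of 87 CD207-positive (12.6%) and 25 of 67 CD207-negative cells. The lower C1QA with CD207 was therefore also present inside a single part.

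CLEC4F, the neighbour of CD207 on the same strand and a lectin gene of the same family, starts 9026 bases past the end of CD207. It had 23 UMIs in 19 of 6998 cells, 14 fresh and 9 cryopreserved, and all 19 cells were dendritic-like. Of these UMIs 22 were in 18 of the 134 CD207-positive cells and 1 in 1 of the 158 CD207-negative cells. How reads were assigned between these neighbours was not tested.

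Of 11691 genes, those whose level across the 22 clusters with 10 or more cells in each library followed CD207 most closely, by the mean of the libraries' Pearson correlations of log2(CPM + 1), were MMP12 (0.95), FLT3 (0.93) and FCRLA, an Fc receptor-like gene (0.93). The same measure gave 0.56 for CCR7, 0.48 for BCL2A1, 0.36 for C1QA and 0.31 for NKG7. BCL2A1 was followed most closely by pan-leukocyte genes, among them the integrin chain gene ITGB2 (0.97), GIMAP6 (0.96) and ADAM8 (0.95), with 0.92 for NKG7, 0.80 for CCR7 and 0.69 for C1QA. The dendritic-like class was a single cluster with 98.8% of CD207 UMIs, so for CD207 this measure picks genes private to that cluster. It does not show which genes follow CD207 from cell to cell within the class. MMP12 had 0 UMIs in the sub-cluster of the PTGS1 and HPGDS cells, where CD207 was highest. The clusters share 2 libraries and differ in depth, so these values are descriptions.

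Among the other genes of these families that could be measured, few resembled either gene. Of the lectins with too few UMIs for that, CLEC4F (23 UMIs), CLEC7A (115 UMIs, 21.6-fold) and ASGR2 (80 UMIs, 2.29-fold) were also highest in dendritic-like cells. Of the C-type lectin list 15 of 21 genes were found in the files and 6 could be measured, and CD207 and CLEC5A (70.9-fold) were highest in dendritic-like cells, while CD209, a lectin of dermal macrophages, was at 0.0247 of the level in the other classes. Of the BCL2 family inhibitors of apoptosis 3 of 6 were found and 2 measured: BCL2A1, and BCL2L1, which encodes BCL-XL and was highest in mast-like cells at 219.5 CPM against 34.2 CPM in dendritic-like cells. MCL1 was listed with 0 UMIs. Of 7 measured promoters of apoptosis PMAIP1 was highest in dendritic-like cells (259 CPM, 2.82-fold), while BMF was 4.68-fold there but highest in T or NK-like cells. The list's median fold was 0.697 against 0.660 over all measured genes. PMAIP1 had CD207-positive over CD207-negative ratios of 0.627 and 0.759.

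The NF-kB list held 12 measured genes, with a median of 2.39-fold. Of these, 7 were at least 2-fold higher in dendritic-like cells and 4 highest there, against 8.55% and 4.12% of all measured genes. By fold the list was led by CD83 (17.8-fold), a surface marker of mature dendritic cells, and the signalling adaptor gene TRAF1 (9.21-fold). TRAF1 was higher still in endothelial-like cells, at 381 CPM against 286 CPM in dendritic-like cells. CD83 was also on the dendritic cell list that named the class, so its high level there was partly built in. With CD207, 5 of the 12 were higher and 3 lower in both libraries, against 28.5% and 29.0% of all genes, and 1 had an interval above 1 in both. The Langerhans cell development list held 13 measured genes. Of these, 9 were at least 2-fold higher in dendritic-like cells and 2 highest there, against 8.55% and 4.12% of all measured genes. Its median was 3.72-fold, and it was led by IRF4 (27.9-fold) and SPI1 (11.6-fold), which encodes PU.1. SPI1, CSF1R and IRF8 were higher still in macrophage-like cells, at 615, 1074 and 586 CPM against 494, 291 and 391 CPM in dendritic-like cells. RUNX3 and ID2 were highest in T or NK-like cells. RUNX3, ID2 and IRF8 of this list were also among the dendritic and Langerhans cell markers used to name clusters. With CD207, 4 of 12 were higher and 5 lower in both libraries, with 2 intervals above 1 and 1 below 1 in both, and SPI1 was among those higher (1.22 and 1.27).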

How the data were processed

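Skin cells of 1 fresh and 1 cryopreserved library were profiled with 10x Chromium 3′ chemistry. The deposited matrices hold whole-number UMI counts per gene and cell barcode, which per the submitters' processing notes the authors made with Cell Ranger 4.0.0, STAR 2.5.1b and Sscrofa11.1. From these counts, cells with at most 4500 genes, at most 30000 UMIs and at most 10% of UMIs from 13 mitochondrial genes were kept: 2775 of 4379 fresh and 4223 of 4860 cryopreserved barcodes, with 32274985 and 36687009 UMIs. Scrublet (scanpy 1.11.5, Python 3.11.15) marked 3 and 35 cells as doublets. They were kept, and 0 and 3 of them were dendritic-like.

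The libraries were integrated and clustered in Seurat 5.3.0 (R 4.3.3) on 2000 variable genes without CD207, BCL2A1, CCR7, C1QA and NKG7, with 30 dimensions and resolution 0.8. A cluster took the name of the marker list with the highest mean log2 ratio over the median cluster, if that was at least 1 and at least 3 markers were seen in 10% or more of its cells. This rule, and the joining of lists (Langerhans and dendritic cell lists into dendritic-like, macrophage and monocyte lists into macrophage-like, both keratinocyte lists into keratinocyte-like), were set after the first clustering was seen, so the names are a rebuilt annotation, not that of the study. Symbols missing for 782 gene identifiers were taken from a reference table of gene names, and several list genes had no match.

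Levels are CPM of summed UMIs. A gene was measured if it had at least 200 UMIs in all, and for ratios between CD207-positive and CD207-negative cells at least 30. Shares were recomputed after thinning each cell to 1000 UMIs, which left out 27 fresh and 32 cryopreserved cells. In the figures a count of 0 is drawn at 3 counts. Intervals came from scipy 1.17.1, and TMM factors from edgeR 4.0.16 served as an alternative scaling. Scripts were tested on simulated data. Genes named are the members, the 3 genes of the overlap, genes of the lists and genes among the 10 most alike to each member across clusters. Genes that name a sub-cluster were picked after their values were seen. The members and lists were chosen with earlier results of these data known. Gene positions and sequences came from the RefSeq annotation of the same build, and the authors' gene identifiers are Ensembl ones.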

Additional observations from a re-analysis of the deposited data

Results flagged for a closer look

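Both genes were also found in barcodes that the cell filter had left out, which no comparison above used. In the fresh library 81 CD207 UMIs were in 11 of 1604 such barcodes, of which 80 were in 10 of the 600 barcodes above the limits on genes or UMIs. In the cryopreserved library 10 CD207 UMIs were in 4 of 637 such barcodes. BCL2A1 had 804 UMIs in 56 of the fresh and 303 UMIs in 36 of the cryopreserved barcodes left out, with 750 and 235 of them above the limits on genes or UMIs. Such barcodes can hold large cells or more than 1 cell, and which they were was not tested.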

How the results depend on the processing

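No paired analysis was possible because there was 1 library of each kind and no test was made, and no library could be left out. Of 83 alternative values of 19 results, 57 stayed within the counting interval, 25 moved out of it and 1 turned its direction. With all deposited barcodes the cryopreserved over fresh ratio was 1.47 for CD207 and 1.29 for BCL2A1, and for BCL2A1 it was 1.06 without the mitochondrial limit. As a mean of per-cell CPM the BCL2A1 ratio was 1.14 over whole libraries, 1.01 in macrophage-like cells and 1.001 in dendritic-like cells, where it turned from 0.937, so no direction is given for BCL2A1 there. Merged without integration, dendritic-like cells held 66.1% of BCL2A1 UMIs. Shares of cells fell with depth. Thinned to 1000 and 2000 UMIs, CD207 cells had CCR7 in 30.2% and 39.4%, C1QA in 0% and 3.03% and NKG7 in 4.65% and 6.06%, and BCL2A1 cells had CCR7 in 20.4% and 25.2%, C1QA in 27.8% and 32.1% and NKG7 in 7.40% and 18.6%. With 2 UMIs or more required, CD207 cells had C1QA in 3.19% and NKG7 in 11.7%, and BCL2A1 cells had CCR7 in 30.3% and NKG7 in 33.9%. At resolution 0.4 the sub-cluster with most XCR1 took in 248 cells, with CD207 in 45.6% and BCL2A1 in 91.1%, against 28.0% and 78.5%. Chosen after seeing the data, leaving out the CX3CR1 and GPR84 cells, as was also done for the ratios with CD207, brought C1QA among CD207-negative dendritic-like cells to 21.8%.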

Other observations

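BCL2A1 varied within the immune classes as well. Among the macrophage-like sub-clusters, one that led with MARCO and ARG1 had 988 CPM fresh and 925 CPM cryopreserved, one that led with CTSL and LYVE1 had 609 and 441 CPM, and one that led with GHR had 130 and 168 CPM. Among the T or NK-like sub-clusters, the one with CD28 and CTLA4 had 355 and 285 CPM. The sub-cluster with the cytotoxic genes GNLY and KLRK1 had 105 and 56.6 CPM. Mast-like cells held a deeper sub-cluster with HDC, the histidine decarboxylase gene, at 647 and 359 CPM (median 7704 UMIs), and a shallow one with GATA2 at 22.5 and 95.6 CPM (median 2099 UMIs).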
